A study of Drosophila melanogaster with 17 samples.

Results

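The 6 transcription factor genes studied here, linked to the maturation and subtype of enteroendocrine cells, were dimmed (dimm), mirror (mirr), Ptx1, Pox neuro (Poxn), abnormal chemosensory jump 6 (acj6) and onecut. Their mRNA was measured by sequencing in sorted progenitor cells of the adult Drosophila melanogaster midgut. They were chosen by name, as factors of enteroendocrine maturation and subtype, and all 6 were found among the 17807 genes counted. Every fly carried esg-Gal4, UAS-GFP and tub-Gal80[ts], was kept at 18 °C until adulthood and spent 2 days at 29 °C, which switches Gal4 on. The controls had no further transgene. The other genotypes added UAS-da (daughterless overexpression), UAS-da-RNAi (da knock-down), UAS-da:da (a forced Da homodimer) or UAS-scute (scute, sc, overexpression). Batch 1 held 3 controls, 2 da overexpression and 3 da knock-down libraries. Batch 2 held 3 controls, 3 da:da and 3 scute libraries, and each genotype was set against the control of its own batch. The escargot (esg) driver acts in stem cells and enteroblasts, and 20000 to 40000 GFP-positive cells from a pool of about 100 midguts made 1 library, so each value is a bulk average over stem cells, enteroblasts and any young progeny that still carried GFP.

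Enteroendocrine cells are the hormone-secreting cells of the gut epithelium. Intestinal stem cells give rise to them after a pulse of the proneural factor Scute, a basic helix-loop-helix (bHLH) protein that binds DNA with its partner Daughterless, the fly E protein, and the homeodomain factor Prospero (Pros) marks the committed lineage. Different enteroendocrine cells make different peptide hormones, and further transcription factors separate these classes. Dimm is a bHLH factor that builds the secretory apparatus of peptide-releasing neurons and endocrine cells. Mirr is a homeodomain factor of the Iroquois group, and Ptx1 is the fly relative of the vertebrate Pitx homeodomain factors. Poxn is a paired-domain factor best known for specifying taste bristles, Acj6 a POU-homeodomain factor best known from olfactory neurons, and Onecut a cut-homeodomain factor of the nervous system.

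In the BDGP6.28 genome the genes lie on 6 chromosome arms. dimm (FBgn0023091) spans 21331756 to 21342155 of arm 2L on the plus strand. mirr (FBgn0014343) spans 12693639 to 12710249 of 3L, plus strand, and Ptx1 (FBgn0020912) spans 30912754 to 30930682 of 3R, plus strand. On the minus strand, Poxn (FBgn0003130) spans 15826693 to 15835055 of 2R, acj6 (FBgn0000028) spans 15350239 to 15379064 of X, and onecut (FBgn0028996) spans 598555 to 607649 of chromosome 4. Counting ignored strand, and 0 exon bases of these 6 genes were shared with another gene.

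Libraries held 33889877 to 40868714 counts in batch 1 and 47136298 to 66679229 in batch 2. Levels below are CPM, the usual unit of counts relative to sequencing depth, with library sizes scaled by edgeR's TMM method, which corrects for differences in composition. Replicates of a group correlated at 0.977 to 0.991 across genes on the log2 CPM scale. The manipulated genes followed the labels: da averaged 112 CPM in the batch 1 control, 871 CPM with UAS-da and 27.9 CPM with its RNAi, and 77.5 CPM in the batch 2 control against 218 CPM with UAS-da:da. The level of sc was 1.77 CPM in the batch 2 control and 2062 CPM with UAS-scute. The transgene supplies reads of its own gene, so these values check the labels only.

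Per exon length, Ptx1 was the highest of the 6 genes in every group. In the batch 2 control it stood at 12.7 ± 2.01 RPKM, that is CPM per kilobase of exon (mean ± SD, n = 3 for every batch 2 group). mirr followed at 2.15 ± 0.506 RPKM, acj6 at 1.90 ± 0.239 and dimm at 1.56 ± 0.336, and the libraries of these neighbours overlapped. onecut (0.319 ± 0.0487 RPKM) and Poxn (0.217 ± 0.0633 RPKM) were the lowest. In the scute libraries the order was Ptx1 at 40.5 ± 3.74 RPKM, dimm at 10.8 ± 1.43, mirr at 6.86 ± 0.479, onecut at 3.07 ± 0.438, acj6 at 1.74 ± 0.118 and Poxn at 1.55 ± 0.275. dimm thus passed mirr and acj6, and onecut passed acj6, while acj6 and Poxn overlapped.

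**Figure D1:**
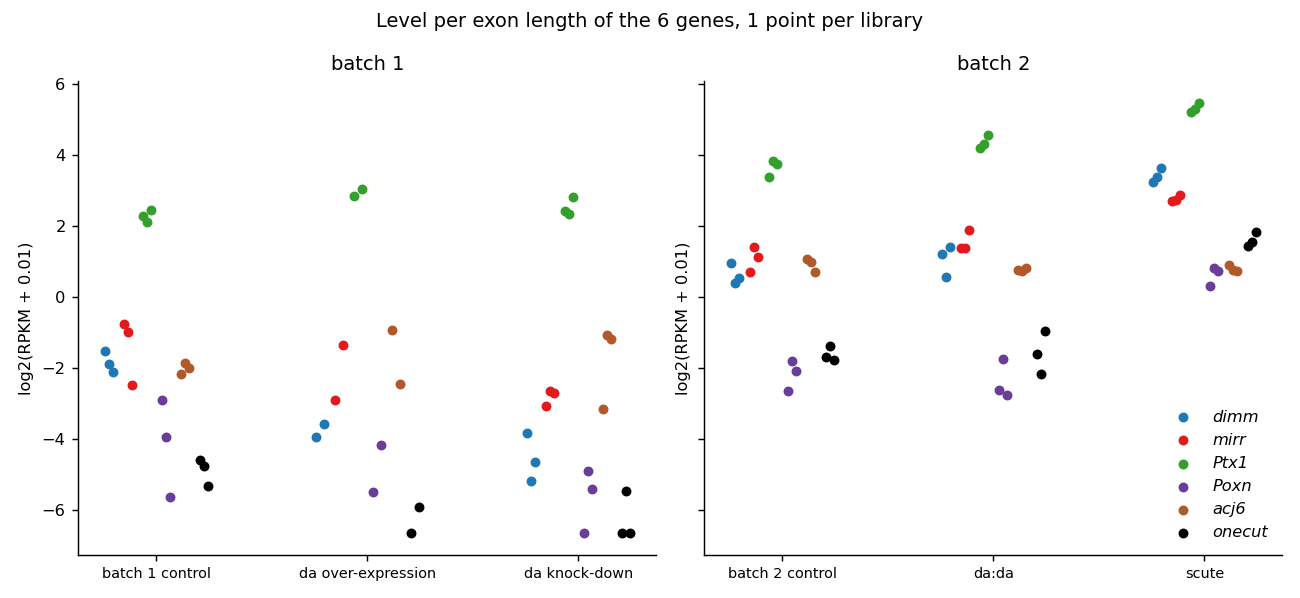
Level per exon length of the 6 genes, as log2(RPKM + 0.01), in each group of batch 1 (left) and batch 2 (right); each point is 1 library. Ptx1 lies above the other 5 genes in every group, and dimm and onecut move up the order in the scute libraries, where dimm averaged 10.8 RPKM.

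Batch 1 levels were lower throughout. The batch 1 control held 4.89 ± 0.549 RPKM of Ptx1, 0.419 ± 0.220 of mirr, 0.275 ± 0.0584 of dimm, 0.240 ± 0.0261 of acj6, 0.0637 ± 0.0580 of Poxn and 0.0246 ± 0.00854 of onecut (n = 3). The batches differ in read length, 50 against 150 bases, and seemingly in the counting of read mates, so these levels were not tested between batches. For Poxn and onecut the batch 1 level rested on 1 to 13 and 4 to 9 counts per control library, and the filter on low counts removed both genes from the batch 1 tests.

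Scute overexpression gave the widest response: 5 of the 6 genes rose and acj6 did not pass the test. Tests were edgeR's quasi-likelihood test, with p-values adjusted by Benjamini and Hochberg's method over the 14190 genes tested in batch 2, and a gene was called changed at an adjusted p under 0.05. Of all genes tested, 22.8% were called higher and 22.2% lower in the same comparison. The median log2 change of the 6 genes was 2.23, beside 0.05 for all genes tested. In bulk RNA, fewer cells of a type and less RNA per cell cannot be told apart, and the same holds for their increase.

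onecut rose most. The batch 2 control libraries held 2.03, 2.52 and 1.90 CPM and the scute libraries 18.4, 19.8 and 24.0 CPM. Every scute library was thus far above every control, and the change was 9.65-fold (log2 3.27 ± 0.27, mean ± SE, adjusted p = 1.35e-06, edgeR). Poxn went from 0.369, 0.678 and 0.553 CPM in the controls, which is 20 to 32 counts, to 3.04, 4.33 and 4.04 CPM with scute, which is 220 to 342 counts. It rose 7.14-fold (log2 2.84 ± 0.32, adjusted p = 1.55e-05, edgeR) and remained the least abundant of the 6 genes per length.

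dimm, the factor of the peptide-secreting state, went from 6.401, 4.30 and 4.73 CPM in the controls to 31.3, 34.7 and 40.6 CPM with scute. The groups were far apart, and the rise was 6.90-fold (log2 2.79 ± 0.23, adjusted p = 1.18e-06, edgeR). The rises of mirr and Ptx1 were smaller. mirr stood at 6.36, 10.3 and 8.46 CPM in the controls and at 25.5, 25.7 and 28.8 CPM with scute, a 3.19-fold rise (log2 1.67 ± 0.19, adjusted p = 1.84e-05, edgeR). Ptx1 stood at 37.2, 50.96 and 47.6 CPM in the controls and at 133, 141 and 159 CPM with scute, also a 3.19-fold rise (log2 1.68 ± 0.14, adjusted p = 1.34e-06, edgeR). For both genes the lowest scute library exceeded the highest control.

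acj6 was the exception. Its controls held 9.32, 8.71 and 7.26 CPM and its scute libraries 8.30, 7.46 and 7.35 CPM, so that the groups overlapped. The log2 change was -0.13 ± 0.14 (adjusted p = 0.499, edgeR), on 411 to 600 counts per library in these groups. Counts of this size for a gene with this spread gave a standard error like that of Ptx1, whose change was called.

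**Figure D2:**
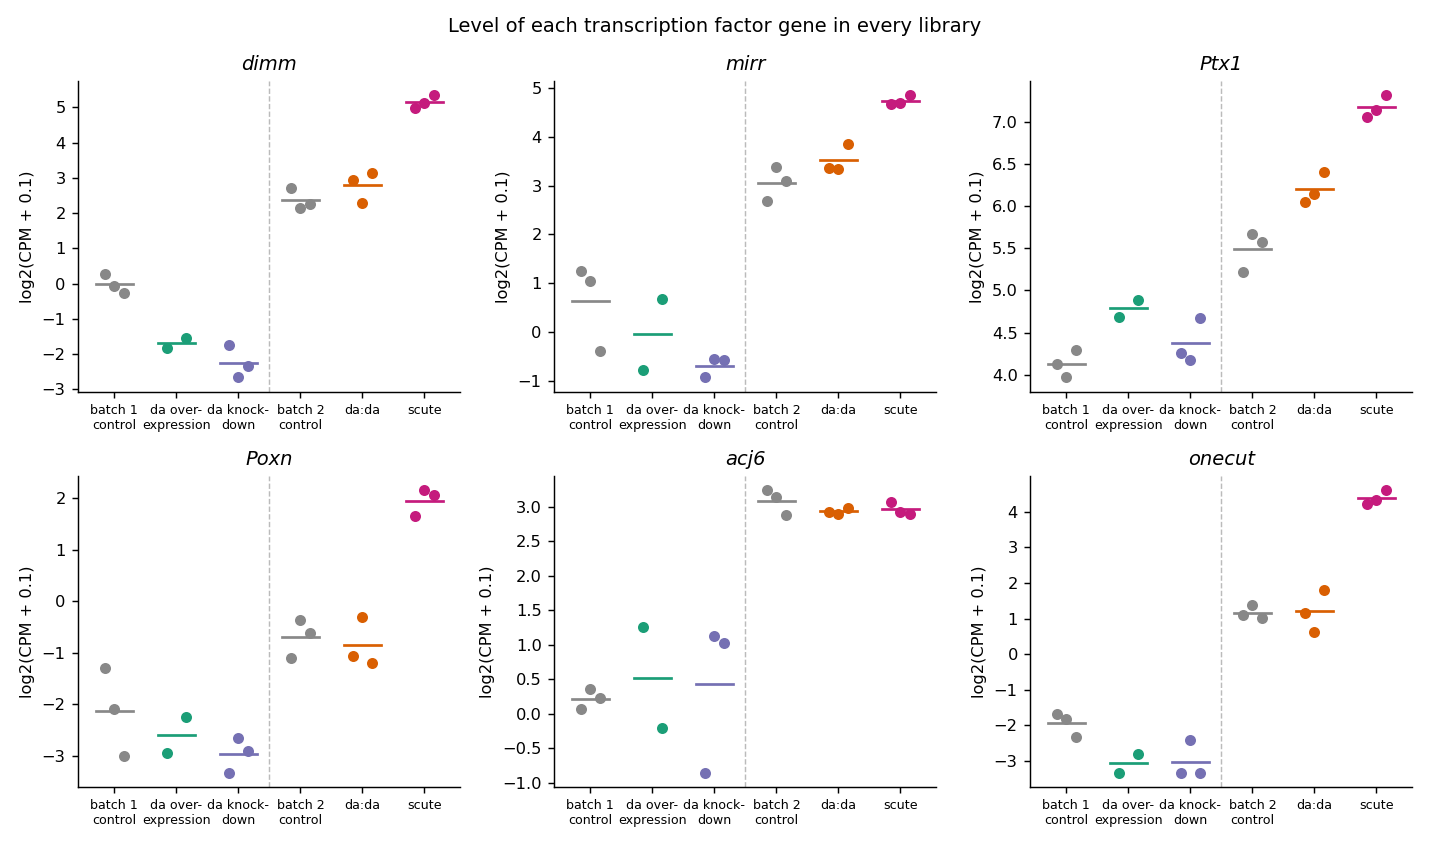
Level of each of the 6 genes as log2(CPM + 0.1) in every library, by genotype; points are libraries, horizontal lines are group means of these log2 values, and a dashed line divides batch 1 from batch 2. In the scute libraries 5 genes lie above all batch 2 controls, acj6 does not, and dimm lies below the batch 1 controls with da overexpression and da knock-down.

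Markers of several cell types also moved in the scute libraries. pros, the general enteroendocrine marker, rose 13.7-fold, from 39.9 ± 4.24 to 547 ± 99.7 CPM (adjusted p = 1.14e-08, edgeR, n = 3 each). Of 8 neuron and glia markers 5 rose (elav, nSyb, brp, para and ChAT), and the summed level of the 8 was 60.2 to 73.2 CPM in the controls and 282 to 378 CPM with scute. Of these, nSyb and brp encode parts of the transmitter release machinery. None of the 8 was at 0, but the glial marker repo (0.191 to 0.501 CPM in the controls, 0.443 to 0.682 CPM with scute) and the glutamate transporter VGlut (0.605 to 1.01 CPM, and 0.821 to 1.29 CPM) were close to it and did not pass. Of the 6 progenitor markers Dl and Su(H) rose, and esg, klu, Sox21a and E(spl)mbeta-HLH fell, with sums of 1594 to 1762 CPM in the controls and 905 to 1187 CPM with scute. The esg call was lost without control replicate 2 (adjusted p = 0.0826), control replicate 3 (0.0541) or scute replicate 3 (0.0541). Visceral muscle markers summed to 44.0 to 67.6 CPM in the controls and 57.9 to 118 CPM with scute, with 1 of 8 called (bt, higher). Haemocyte markers summed to 1.81 to 3.89 CPM and 3.89 to 7.73 CPM, with 1 of 4 tested called (Pxn, higher). Of 8 enterocyte markers mesh, Ssk and Tsp2A rose and Myo31DF fell, with sums of 1099 to 1997 CPM in the controls and 1800 to 2099 CPM with scute. The part of these cells in the members' changes was not tested.

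The forced homodimer da:da raised Ptx1 alone among the 6 at this threshold, against a background of 5.39% of genes called higher and 6.52% called lower. Ptx1 held 66.2, 70.4 and 84.6 CPM in the da:da libraries, all above the 37.2 to 50.96 CPM of the controls, a 1.63-fold rise (log2 0.70 ± 0.14, adjusted p = 0.00491, edgeR). The call held in all 17 alternative analyses, with adjusted p from 0.000359 to 0.018. mirr held 10.2, 10.1 and 14.4 CPM, overlapping the 6.36 to 10.3 CPM of the controls, and dimm held 7.65, 4.83 and 8.76 CPM, overlapping 4.30 to 6.401 CPM. Their log2 changes of 0.47 ± 0.19 (adjusted p = 0.157, edgeR) and 0.46 ± 0.22 (adjusted p = 0.236, edgeR) did not pass.

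The 3 remaining genes stayed near the control level with da:da. onecut held 2.14, 1.44 and 3.40 CPM with a log2 change of 0.12 ± 0.26 (adjusted p = 0.858, edgeR). Poxn held 0.381, 0.707 and 0.339 CPM with a log2 change of -0.18 ± 0.34 (adjusted p = 0.835, edgeR). acj6 held 7.45, 7.34 and 7.77 CPM with a log2 change of -0.16 ± 0.14 (adjusted p = 0.561, edgeR). Each of the 3 overlapped its controls, and the median of the 6 log2 changes was 0.29, beside -0.01 for all genes tested. pros showed 51.2 ± 7.27 CPM with da:da and 39.9 ± 4.24 CPM in the control, which did not pass (adjusted p = 0.156, edgeR).

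Cell type markers moved with da:da as well. The 6 progenitor markers summed to 1594 to 1762 CPM in the controls and 2179 to 2241 CPM with da:da, without overlap, and 2 of them were called higher. These were Sox21a, a stem cell factor (log2 0.69 ± 0.13, adjusted p = 0.00385, edgeR), and esg itself, which averaged 651 CPM in the controls and 928 CPM with da:da (log2 0.51 ± 0.14, adjusted p = 0.038). The esg call was lost when any single control or da:da library, or scute replicate 2, was left out (adjusted p from 0.0578 to 0.113). Enterocyte markers summed to 703 to 1412 CPM, overlapping the 1099 to 1997 CPM of the controls, with Tsp2A called higher (1.01 ± 0.29, adjusted p = 0.0397) and the digestive enzyme gene betaTry lower (-1.90 ± 0.39, adjusted p = 0.00767). The Tsp2A call was lost in 6 of 17 alternatives, including the removal of control replicate 2 (0.107) or of any da:da library, and the betaTry call in the fit of all 17 libraries (0.263). Neuron and glia markers summed to 60.3 to 66.5 CPM, with elav called lower (-0.36 ± 0.10, adjusted p = 0.0349, lost in 8 of 17 alternatives). Visceral muscle markers summed to 54.6 to 109.6 CPM and haemocyte markers to 2.58 to 4.04 CPM, with 0 of 8 and 0 of 4 called by edgeR, 0 at an unadjusted p under 0.05 and 0 called by DESeq2. The part of these cells in the members' changes was not tested.

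Set directly against da:da within batch 2, the scute libraries were higher for 5 of the 6 genes, where 21.4% of all genes tested were called higher. The log2 difference was 3.15 ± 0.27 for onecut, 3.01 ± 0.32 for Poxn, 2.32 ± 0.22 for dimm, 1.21 ± 0.19 for mirr and 0.97 ± 0.14 for Ptx1, with adjusted p between 1.94e-06 and 0.000246 (edgeR). acj6 differed by 0.03 ± 0.14 (adjusted p = 0.878, edgeR). Neither genotype's libraries overlapped the other's for the 5 genes, and Ptx1, the gene that da:da raised, showed the smallest of these 5 differences.

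**Figure D3:**
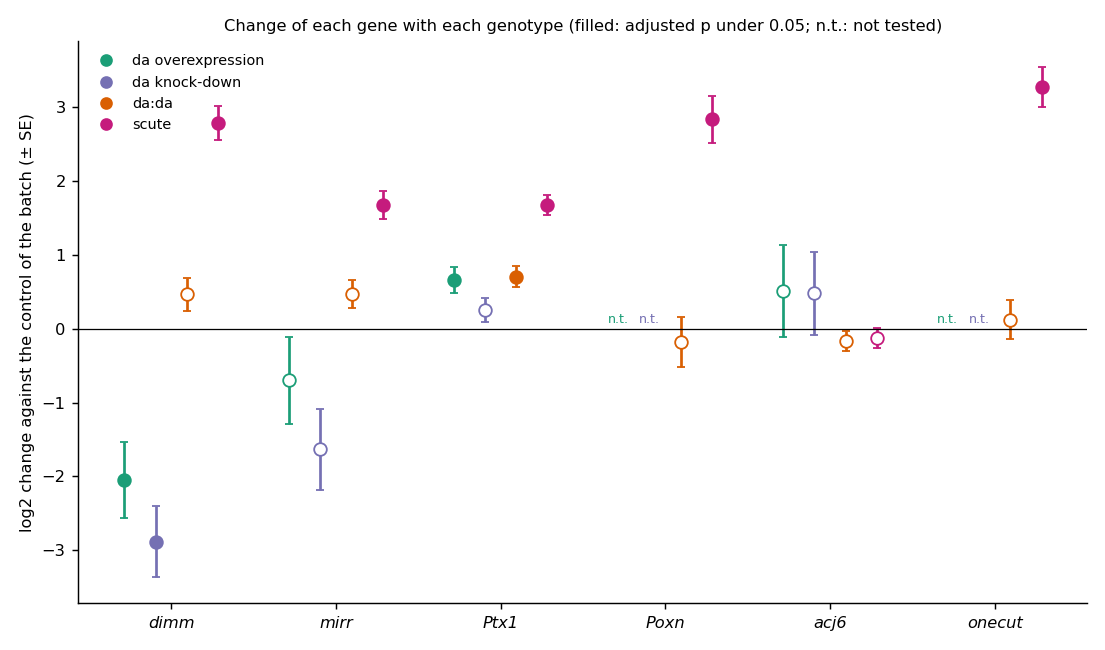
Log2 change of each gene against the control of its batch, with standard errors, for the 4 genotypes; filled points passed an adjusted p of 0.05 and open points did not. scute gives filled points for 5 genes from 1.67 (mirr) to 3.27 (onecut), da:da for Ptx1 alone, and dimm is lowered by da overexpression and da knock-down, while Poxn and onecut were not tested in batch 1.

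In batch 1, dimm fell in both directions of the da manipulation. The control libraries held 1.11, 0.862 and 0.737 CPM, which is 29 to 47 counts. With da knocked down the level was 0.198, 0.0585 and 0.1002 CPM, on 2 to 7 counts, and with da overexpressed 0.181 and 0.247 CPM, on 6 and 11 counts. All 5 libraries lay below all 3 controls. The knock-down lowered dimm by 2.88 ± 0.48 on the log2 scale, a 7.37-fold difference (adjusted p = 0.00331, edgeR), and the call held in all 14 alternatives that could be fitted, with adjusted p from 6.03e-05 to 0.0162. Overexpression lowered it by 2.05 ± 0.51, a 4.14-fold difference (adjusted p = 0.0183, edgeR), but this call was lost when control replicate 1 (adjusted p = 0.0598), overexpression replicate 1 (0.0925) or overexpression replicate 2 (0.0721) was left out. Both comparisons share the 3 control libraries. dimm was the only 1 of the 4 genes tested that was called lower in either comparison, beside 9.16% of all genes with knock-down and 9.36% with overexpression.

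Ptx1 rose with da overexpression, from 17.4, 15.5 and 19.5 CPM in the controls to 25.7 and 29.4 CPM, a 1.58-fold change (log2 0.66 ± 0.17, adjusted p = 0.0226, edgeR), where 13.5% of all genes were called higher. The groups did not overlap, yet the call was lost when control replicate 1 (adjusted p = 0.062), control replicate 2 (0.0921) or overexpression replicate 2 (0.133) was left out. With knock-down Ptx1 held 19.1, 18.0 and 25.4 CPM and overlapped the controls (log2 0.25 ± 0.16, adjusted p = 0.3, edgeR). The comparison between overexpression and knock-down gave a log2 difference of 0.40 ± 0.17 (adjusted p = 0.112, edgeR), which passed in 2 of 15 alternatives, among them leaving out knock-down replicate 3 (adjusted p = 0.0264). No member was called higher with knock-down, where 11.2% of all genes were: 2 of the 4 tested had an unadjusted p under 0.05, both of them lower (dimm and mirr), and DESeq2 called these same genes lower and none higher.

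mirr stood at 2.28, 1.95 and 0.661 CPM in the batch 1 controls, with replicate 3 far below the other 2. The knock-down libraries, at 0.425, 0.585 and 0.568 CPM, were all lower than that. The log2 change of -1.63 ± 0.55 missed the threshold (adjusted p = 0.0627, edgeR), and passed it in 7 of 14 alternatives, among them leaving out control replicate 3 (log2 -2.002, adjusted p = 0.0182) and DESeq2 (adjusted p = 0.0262). With da overexpressed the libraries held 0.482 and 1.51 CPM and overlapped the controls (log2 -0.70 ± 0.59, adjusted p = 0.435, edgeR).

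acj6 spread widely within the manipulated groups of batch 1. Its controls held 0.948, 1.18 and 1.07 CPM, the overexpression libraries 2.29 and 0.764 CPM, and the knock-down libraries 0.453, 2.08 and 1.94 CPM. In each manipulated group some libraries lay above the controls and 1 below them, with log2 changes of 0.51 ± 0.62 (adjusted p = 0.603, edgeR) and 0.48 ± 0.56 (adjusted p = 0.605, edgeR).

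Poxn and onecut were too low for the batch 1 test. onecut had 9, 8 and 4 counts in the controls, 0 and 2 with da overexpression and 0, 3 and 0 with knock-down. Summed per group and scaled to library size, the control level was 6.49 times that with overexpression (95% interval 1.59 to 57.1) and 5.54 times that with knock-down (1.66 to 29.0). Poxn had 13, 6 and 1 counts in the controls, 1 and 5 with overexpression and 0, 2 and 1 with knock-down, and the control to knock-down ratio was 5.28 (1.57 to 27.7). These are exact conditional intervals that cover counting error only and not the spread between libraries, which for the Poxn controls ran from 1 to 13 counts. Fitted without the filter, neither gene passed: the adjusted p for onecut was 0.16 with overexpression and 0.151 with knock-down, and for Poxn 0.568 and 0.177 (edgeR).

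In batch 1 cell type markers also differed between groups. The 6 progenitor markers summed to 1320 to 1647 CPM in the controls, 1781 to 2478 CPM with da overexpression and 1364 to 1449 CPM with knock-down. With overexpression 2 of them were called higher, Sox21a (log2 0.61 ± 0.17, adjusted p = 0.0292, edgeR) and the Notch target E(spl)mbeta-HLH (1.05 ± 0.22, adjusted p = 0.00857), a count that fell to 0 without overexpression replicate 1 and to 1 without control replicate 2 or 3. With knock-down 2 were called lower, esg (-0.53 ± 0.15, adjusted p = 0.0342) and klu (-0.62 ± 0.17, adjusted p = 0.0318). The count of lower calls was 0 when control replicate 2, or replicate 1 or 2 of the knock-down, was left out. It was 1 when either other control or the other knock-down library was left out. Visceral muscle markers summed to 3.39 to 3.96 CPM in the controls and 8.81 to 10.9 CPM with da overexpression, where 3 of 6 tested were called higher, or 1 without control replicate 1 or overexpression replicate 2. With knock-down they summed to 3.09 to 7.55 CPM and 1 of 6 was called higher (Mlc2, 1.27 ± 0.36, adjusted p = 0.0361, edgeR), a call that 5 of the 6 removals of a control or knock-down library ended. Enterocyte markers summed to 490 to 736 CPM in the controls, to 611 to 918 CPM with overexpression, where Tsp2A was called higher (2.11 ± 0.22, adjusted p = 0.000144), and to 848 to 1417 CPM with knock-down, where 4 of 8 rose (nub, mesh, Ssk and Tsp2A), or 7 without control replicate 1. Haemocyte markers summed to at most 0.237 CPM in any batch 1 library, with 1 of the 5 at 0 in each group, and neuron and glia markers to 13.0 to 22.8 CPM in every group. Of the 4 neuron and glia markers tested, nSyb was called lower with knock-down, at 0.295 CPM against 1.02 CPM in the controls (log2 -1.78 ± 0.38, adjusted p = 0.0105, edgeR), and this call held in all 14 alternatives. The part of these cells in the members' changes was not tested.

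Between overexpressed and knocked-down da no member was called at this threshold. Of the 4 genes tested edgeR called 0 and DESeq2 called 0, while 1 (Ptx1) had an unadjusted p under 0.05, and 30.1% of all genes were called in this comparison. dimm differed by 0.83 ± 0.57 on the log2 scale (adjusted p = 0.315, edgeR) and mirr by 0.93 ± 0.60 (adjusted p = 0.28, edgeR). Intervals of this width leave room for differences of 2-fold or more.

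The change with da:da was compared with the change with monomeric da in 1 fit of all 17 libraries, each change being taken against its own batch control. A batch effect that scales a gene's level alike in all libraries of the batch drops out of this difference. One that adds to the level does not, and its part was not tested. The batch controls themselves differed, with dimm at 0.905 CPM in batch 1 and 5.15 CPM in batch 2. Only dimm among the 6 was called, with da:da higher by 2.58 ± 0.46 on the log2 scale (adjusted p = 0.00174, edgeR), where 2.5% of 14083 genes were called higher. The call held in all 23 alternatives, with adjusted p from 4.73e-05 to 0.0152. Behind it stand a change of 0.46 that did not pass with da:da and a fall of 2.05 with da. pros differed in the same direction by 2.32 ± 0.41 (adjusted p = 0.00164, edgeR). Ptx1, raised by both forms, differed by 0.11 ± 0.22 (adjusted p = 0.853, edgeR). mirr differed by 1.21 ± 0.56 (adjusted p = 0.235) and onecut by 2.81 ± 1.02 (adjusted p = 0.118), and Poxn (0.94 ± 0.97, adjusted p = 0.656) and acj6 (-0.58 ± 0.58, adjusted p = 0.642) did not pass either. onecut and Poxn passed the filter of this fit through their batch 2 levels only. Their da overexpression libraries held 0 and 2 counts of onecut and 1 and 5 counts of Poxn.

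Regulators of entry into the enteroendocrine lineage were read from a list of 9 genes: pros, tap, ase, l(1)sc, ac, phyl, nerfin-1, ttk and nvy. The list mixes directions, since ttk encodes the repressor Tramtrack. With scute 7 of 9 rose, with a median log2 change of 3.78. ttk was 1 of the 7, at 106 CPM in the controls and 191 CPM with scute. tap was another, and its call was lost in 4 of 17 alternatives, among them DESeq2 (adjusted p = 0.0532) and leaving out scute replicate 3 (0.168). The 7 also included nvy, a co-repressor of the ETO family (6.92 ± 0.27), the proneural gene ase (6.08 ± 0.20) and the zinc-finger gene nerfin-1 (5.76 ± 0.31), with adjusted p of 6.36e-09, 1.48e-09 and 6.18e-08 (edgeR). With da knock-down 5 of the 7 tested fell, led by phyl, an adaptor for the breakdown of the repressor Tramtrack (-5.98 ± 0.53, adjusted p = 0.00012, edgeR), and including pros (-2.72 ± 0.37, adjusted p = 0.00116, edgeR), nerfin-1 (-3.09 ± 0.57, adjusted p = 0.00516) and ase (-3.28 ± 0.80, adjusted p = 0.019). The ase call ended without knock-down replicate 1 (0.0551) or replicate 2 (0.0658), and the list had 3 lower calls without control replicate 2 or knock-down replicate 1.

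With da overexpression 4 of the 7 regulators tested fell and nvy rose; the lower calls numbered 2 without control replicate 1 or either overexpression library. nvy went from 0.421 to 167 CPM (log2 8.60 ± 0.38, adjusted p = 8.65e-07, edgeR), while phyl fell by 2.88 ± 0.46 (adjusted p = 0.0021, edgeR). ase had 1 count with da overexpression against 66 in the controls, a ratio of 40.8 with a counting interval of 7.08 to 1636. Its call (adjusted p = 0.0111, edgeR) ended without da overexpression replicate 2 (0.0919). pros fell by 1.90 ± 0.41 (adjusted p = 0.00927, edgeR), and that call ended without da overexpression replicate 1 (0.0648). With da:da nvy rose again, from 0.805 to 61.5 CPM (log2 6.26 ± 0.26, adjusted p = 4.96e-08, edgeR), and ase fell by 0.80 ± 0.21 (adjusted p = 0.0265, edgeR). The latter call ended in 8 of 16 alternatives, among them leaving out control replicate 1 (adjusted p = 0.0896) or 2 (0.0704) or any of the da:da libraries (0.0587, 0.0777 and 0.115).

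The peptide hormones are what enteroendocrine subtypes differ in. The 11 hormone genes summed to 4056 to 4457 CPM in the batch 2 controls and 4248 to 7251 CPM with scute, with overlap. Of the 11 genes 8 rose and 2 fell with scute. CCHa1 went from 11.7 to 897 CPM (log2 6.26 ± 0.48, adjusted p = 7.84e-07, edgeR) and AstA from 10.4 to 742 CPM (log2 6.15 ± 0.59, adjusted p = 4.35e-06, edgeR). Mip moved the other way, from 31.9 to 0.663 CPM (log2 -5.59 ± 0.16, adjusted p = 6.57e-10, edgeR). A pair of genes chosen after their values were seen, NPF and Tk, changed by less: NPF fell by 1.06 ± 0.19 (3776 to 1811 CPM, adjusted p = 0.000621) and Tk rose by 0.83 ± 0.18 (316 to 560 CPM, adjusted p = 0.00201). Both calls ended when all 17 libraries were fitted together (adjusted p = 0.197 and 0.215).

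In batch 1, where dimm was lower, several hormone genes fell too. The sum of all 11 overlapped between groups, at 265 to 331 CPM in the controls, 188 to 649 CPM with overexpression and 176 to 308 CPM with knock-down. With knock-down 7 of 10 tested fell, or 3 of 9 without control replicate 1, among them CCHa1 (33.9 to 0.483 CPM, log2 -6.10 ± 0.73, adjusted p = 0.000596, edgeR) and AstA (21.8 to 1.03 CPM, log2 -4.39 ± 0.70, adjusted p = 0.00258). With overexpression 5 of 10 fell, or 3 without overexpression replicate 1, and 1 (ITP) rose. The ITP call ended in 7 of 15 alternatives, among them leaving out control replicate 2 (adjusted p = 0.112) or 3 (0.0888) or either overexpression library (0.0638 and 0.168). Dh31 fell from 5.68 to 0.0713 CPM (log2 -6.17 ± 1.28, adjusted p = 0.00779, edgeR), a call that ended without either overexpression library (0.0511 each). AstA fell from 21.8 to 0.868 CPM (log2 -4.67 ± 0.85, adjusted p = 0.00404, edgeR). Mip had 43 counts in the controls and 0 in both manipulated groups, which puts it at least 8.86-fold lower with overexpression and at least 11.3-fold lower with knock-down, taking 3 counts per group as the floor. The overexpression call of Mip (adjusted p = 0.0257, edgeR) ended without replicate 1 (0.0767) or replicate 2 (0.111).

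With da:da 3 of 11 hormone genes fell and 1 (ITP) rose. Their sum was nonetheless higher, at 4782 to 8228 CPM with da:da against 4056 to 4457 CPM in the controls, without overlap. In the controls most of this sum was NPF, at the level given above. NPF was not called with da:da in the fit as reported (edgeR), so the sum does not describe the hormone genes in general. Dh31 fell from 19.998 to 2.64 CPM (log2 -2.92 ± 0.30, adjusted p = 4.81e-05, edgeR) and CCHa1 from 11.7 to 2.11 CPM (log2 -2.47 ± 0.44, adjusted p = 0.00282, edgeR). AstA fell from 10.4 to 2.94 CPM (log2 -1.85 ± 0.52, adjusted p = 0.0399, edgeR), but its libraries overlapped and 9 of 17 alternatives ended the call, among them the removal of control replicate 1 (adjusted p = 0.0681), control replicate 3 (0.174), scute replicate 2 (0.0536), or replicate 1 or 3 of da:da (0.122 and 0.128). dimm did not fall in these libraries, as given above.

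Genes of peptide processing, a programme that Dimm is known to control in peptidergic neurons, were read from a list of 8. With scute 6 of 8 rose, with a median log2 change of 1.65: 7B2, the helper protein of the prohormone convertase (2.77 ± 0.28, adjusted p = 5.87e-06, edgeR), amon, that convertase itself (2.70 ± 0.36, adjusted p = 5.61e-05), and IA-2, a dense-core vesicle protein (2.59 ± 0.29, adjusted p = 1.56e-05), among them. In the da knock-down, where dimm fell 7.37-fold, 1 of 7 tested fell, the amidating enzyme gene Pal1 (-0.49 ± 0.11, adjusted p = 0.0114, edgeR). The knock-down had 2 lower calls with the replicate block, without the filter, with only the groups compared and in the fit of all 17 libraries. It also had 2 when either overexpression library was left out. With da overexpression edgeR called 0 of 7, with 0 at an unadjusted p under 0.05 and 0 called by DESeq2. With da:da edgeR called 0 of 8 in the fit as reported, with 2 at an unadjusted p under 0.05 and 1 called higher by DESeq2. There was also 1 higher call when the groups were fitted alone, or when da:da replicate 1, scute replicate 1 or scute replicate 3 was left out. The summed level of the 8 genes was 186 to 231 CPM in the batch 1 controls, 177 to 221 CPM with da overexpression and 174 to 215 CPM with knock-down. In batch 2 it was 1214 to 1341 CPM in the controls and 4048 to 8514 CPM with scute. With da:da it was 1538 to 2638 CPM, above every control library, and the median log2 change of the 8 genes was 0.48.

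**Figure D4:**
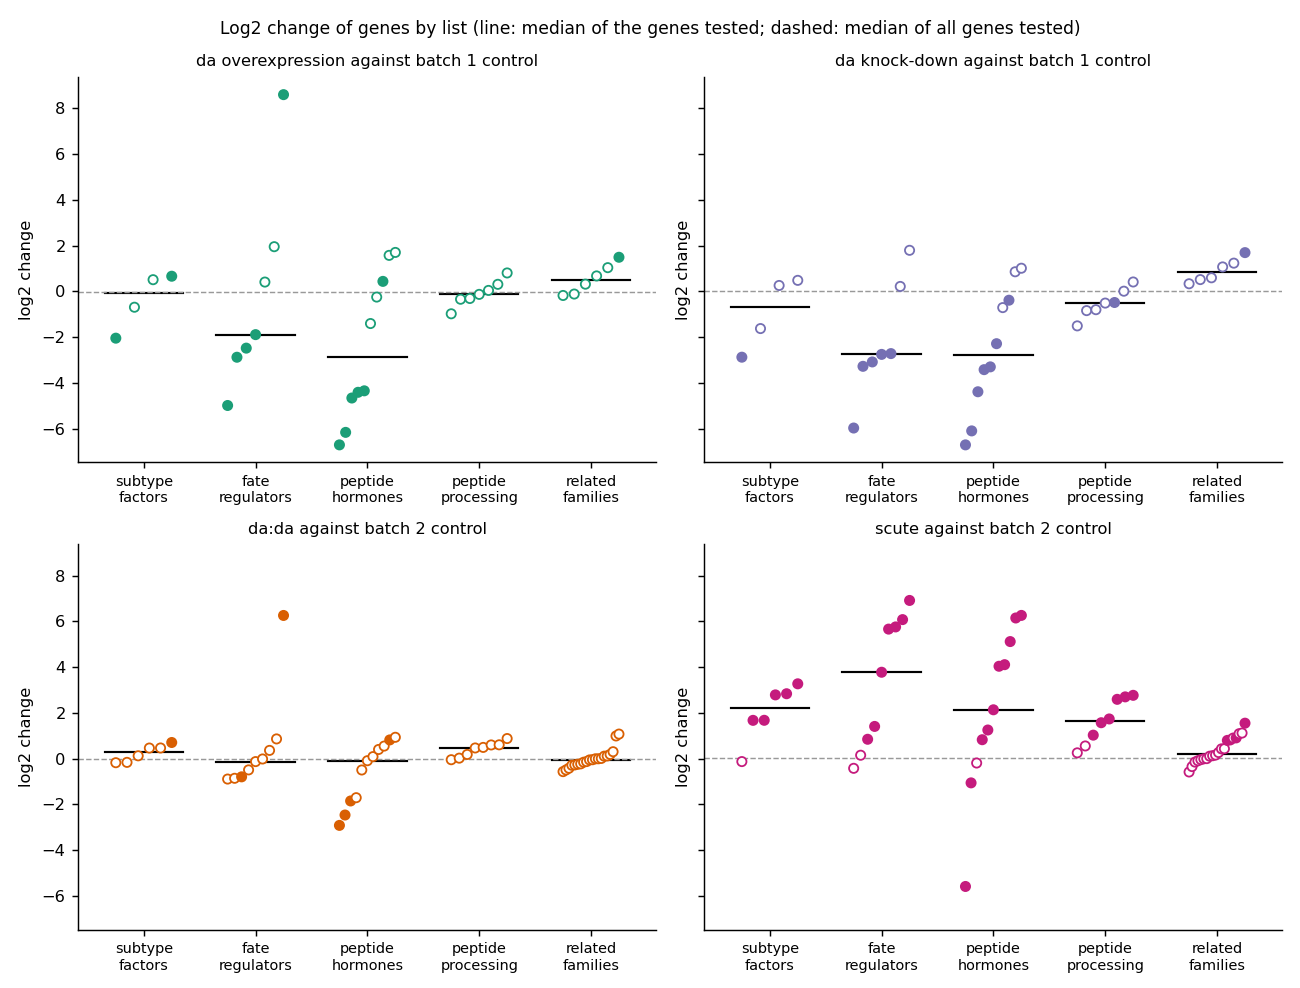
Log2 change of single genes, grouped as the 6 subtype factors, lineage regulators, peptide hormones, peptide-processing genes and related transcription factors, in 4 comparisons with the batch control; filled points passed an adjusted p of 0.05, black lines are medians of the genes tested and dashed lines the medians of all genes tested. With scute the median is 2.23 for the subtype factors and 1.65 for processing genes, and 0.21 for the related factors, which are relatives of the members other than dimm.

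Relatives of mirr, Ptx1, Poxn, acj6 and onecut in the paired, POU, cut, Iroquois and Pitx-like families were read from a list of 20 genes. The bHLH family of dimm was not among these families. Of these 4 rose with scute, 20% beside the 22.8% of all genes, with a median log2 change of 0.21, and 7 rose with batch 2 counts halved. They were the Pax gene sv (1.55 ± 0.23, adjusted p = 0.000144, edgeR), the Pax6 gene toy (0.82 ± 0.15, adjusted p = 0.000782), Poxm (0.91 ± 0.34, adjusted p = 0.0461) and the POU gene pdm3 (0.80 ± 0.27, adjusted p = 0.0295). Without control replicate 2, scute replicate 1 or scute replicate 2 the list had 2 calls. The Poxm call ended in 10 of 17 alternatives, including the removal of any single control or scute library, and the pdm3 call ended without control replicate 2 or 3 or scute replicate 1 or 2 (adjusted p from 0.0568 to 0.105). In batch 1 pdm3 rose with da overexpression (1.49 ± 0.36, adjusted p = 0.0158), a call that ended without control replicate 1 (0.056) or 2 (0.0631) or overexpression replicate 1 (0.0814), and nub, also an enterocyte gene, rose with knock-down (1.69 ± 0.34, adjusted p = 0.00839).

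Across the 17 libraries each member had genes with a closely similar pattern, measured as Pearson's r of log2 CPM taken as the deviation from the mean of the batch control, over 14083 genes. These values describe shared libraries that differ mainly in genotype, and they carry no test. For the 5 members that rose with scute, the 3 scute libraries can carry much of a high r. Of all genes tested in batch 2, 22.8% were called higher there. For Poxn and onecut the batch 1 points rest on at most 13 counts per library. The nearest to dimm were stan (0.977), twz (0.976) and CG12885 (0.975), and the nearest to onecut were CG42795 (0.988), CG14321 (0.984) and Ca-beta (0.981). Poxn was nearest to Ca-beta (0.947), the hormone gene AstC (0.944) and Agpat1 (0.940). mirr was nearest to CG6184 (0.956), bou (0.954) and Rad60 (0.952), and Ptx1 to Pgant2 (0.974), Trpm (0.966) and CG7231 (0.962). The nearest to acj6 were CG17781 (0.902), Vsx1 (0.898) and lncRNA:CR45536 (0.893). Among the members themselves, dimm, mirr, Poxn and onecut had r of 0.817 to 0.917 with each other, Ptx1 had 0.627 to 0.692 with these 4, and acj6 had -0.370 to -0.122 with the other 5.

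In the authors' deposited table, dimm had a log2 fold change of -2.88 with da knock-down (adjusted p = 2.05e-07), -2.07 with da overexpression (8.28e-05), 0.47 with da:da (0.219) and 2.80 with scute (1.26e-27). The authors' deposited table put mirr below 0.05 with knock-down (-1.61, adjusted p = 0.000717), where the edgeR test above gave 0.0627. The authors' deposited table also put onecut below 0.05 in batch 1, at -2.43 with knock-down (adjusted p = 0.0352) and -2.71 with overexpression (0.0481), on the 0 to 9 counts per library given above. For acj6 no value in the authors' deposited table was under 0.05, the lowest being 0.378.

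**Figure D5:**
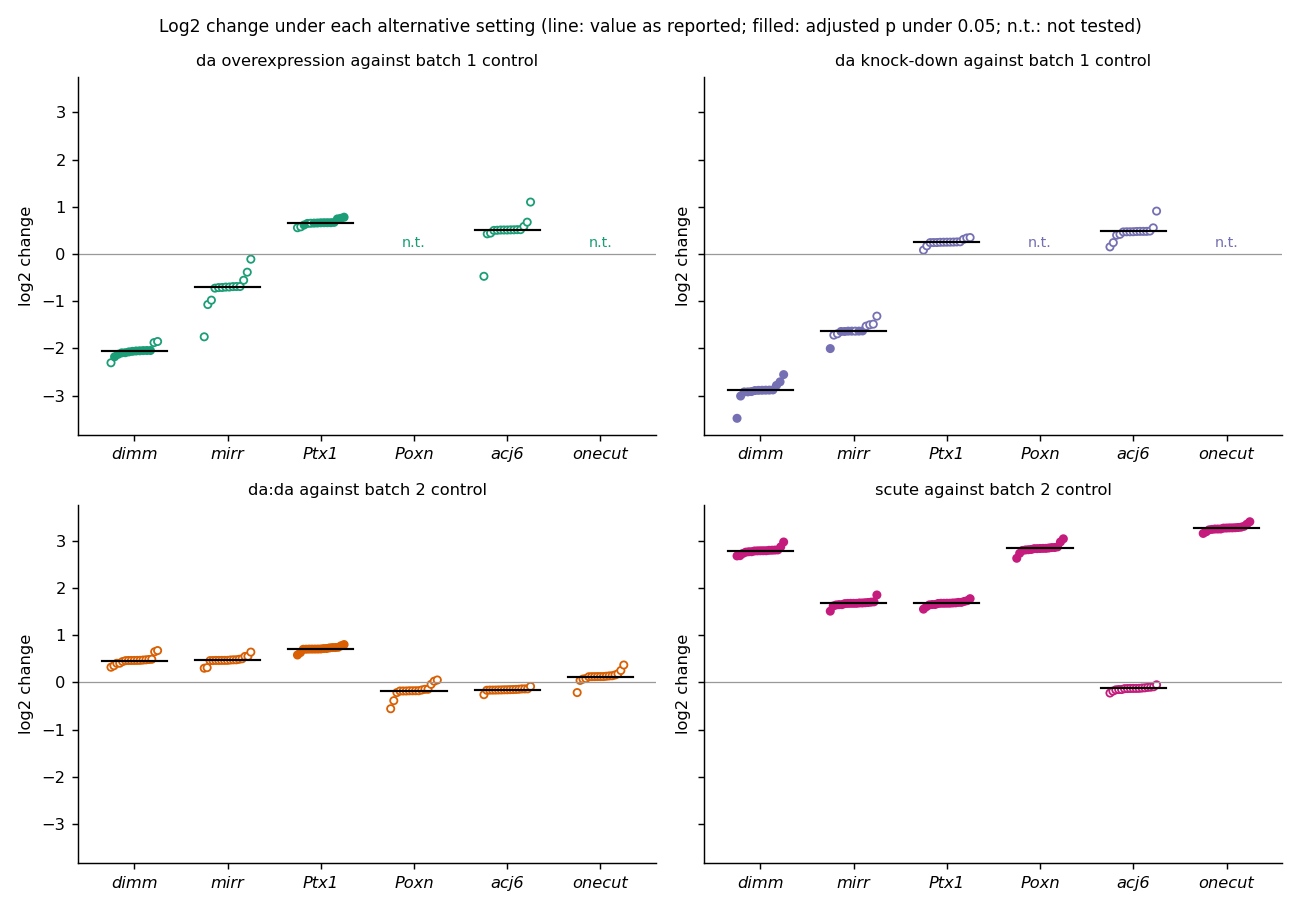
Log2 change of each gene under every alternative setting, including the removal of each library, for the 4 comparisons with the batch control; lines are the values as reported and filled points passed an adjusted p of 0.05. With scute the 5 rising genes stay filled throughout, from 1.51 for mirr to 3.40 for onecut, whereas some points are open for dimm and Ptx1 with da overexpression, and all points of acj6 are open.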

How the data were processed

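The deposited files gave raw counts per gene, made by the authors with featureCounts 2.0.2 on exons of BDGP6.28, annotation release 101, per the file headers, without a strand option and without multi-mapping reads; the aligner is not given in the sources used here. Batch 2 was read in pairs, and the file headers show no option to count pairs. Each mate thus seems to have been counted, so counts in batch 2 can exceed the number of fragments. The authors' deposited workbook gave log2 fold changes and adjusted p-values per comparison, quoted only as theirs; 17 columns of per-sample values in it were not used.

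Counts were analysed in R 4.3.3 with edgeR 4.0.16 (limma 3.58.1): filterByExpr by group, TMM scaling and 1 quasi-likelihood fit per batch, with 9540 genes tested in batch 1 and 14190 in batch 2, and 1 fit of 17 libraries for the difference between batches. SE was derived from the F statistic. Alternatives included DESeq2 1.42.0. The fits were checked on simulated data with the same spread for all genes and known changes in well-counted genes only. That check does not cover changes of genes with few counts, such as dimm in batch 1. Replicates were pools of guts, so p-values measure the spread between pools. Floors and intervals cover counting error only.

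Replicate numbers come from the labels, which do not say what they mark. Same-numbered control and knock-down libraries deviated together (r = 0.187, 0.190 and 0.287), so the replicate block was read as a pairing for these groups only. The other pairs of groups did not (r from -0.279 to 0.159 over their same-numbered pairs). Differently numbered pairs of batch 1 ran from -0.251 to 0.279, so r of this size also occurred without a shared number. Between control and knock-down alone, differently numbered pairs ran from -0.251 to 0.0154.

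Named genes were the 6 members, da, sc and pros, the 3 called genes with the largest change per list, and the 3 genes most like each member. The other list and marker genes named beside counts fall outside this rule and were chosen after their values were seen. The members and lists were chosen with earlier results of these data known.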

Additional observations from a re-analysis of the deposited data

Results flagged for a closer look

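One result differed between forms of the same factor. The change of dimm with da:da minus its change with monomeric da was 2.58 on the log2 scale (SE 0.46, adjusted p = 0.00174, edgeR, tested in 1 fit of all 17 libraries). dimm was lower in 2 of 2 da overexpression libraries than in every batch 1 control, and higher in 2 of 3 da:da libraries than in every batch 2 control. The forms were run in different batches. A batch effect on one genotype but not its control, or one that adds to both, cannot be told apart from the factor's form.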

How the results depend on the processing

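Of 614 alternative values for the members, 587 kept direction and side of the threshold, 6 lost a call, 10 gained one and 11 changed sign, all of the latter in changes that had not passed. The scute calls of dimm, mirr, Ptx1, Poxn and onecut held in each of 17 alternatives. mirr with knock-down passed in 7 of 14 (adjusted p from 0.0126 to 0.197 over all 14). Ptx1 between overexpression and knock-down passed with the replicate block (0.54, adjusted p = 0.0223) and without knock-down replicate 3 (0.0264), and mirr in the difference between da forms passed without batch 1 control replicate 3 (1.58, adjusted p = 0.0404). In the fit of all 17 libraries acj6 between overexpression and knock-down turned to -0.043. With libraries left out in turn, the log2 values of acj6 ran from -0.47 to 1.10 (da overexpression), from -0.94 to 0.62 (overexpression against knock-down), from -0.023 to 0.070 (scute against da:da) and from -1.18 to 0.37 (difference between da forms). Those of mirr ran from -0.12 to 1.52 between overexpression and knock-down, those of Poxn from -0.56 to 0.051 and of onecut from -0.22 to 0.37 with da:da, and those of Ptx1 from -0.0040 to 0.24 in the difference between da forms. The cause was not tested. Over all genes, 2185 were called with da overexpression (1339 to 2118 with a library left out) and 1947 with knock-down (937 to 2163); the lowest counts came without da overexpression replicate 2 (1339) and control replicate 2 (1379) for the former, and without control replicate 2 (937) and replicate 1 (1095) for the latter. The replicate block gave 2438 and 2031 calls, and 1755 with da:da and 6361 with scute against 1690 and 6389; it changed no other member's call, and it called 2 of 8 peptide-processing genes higher with da:da, where the fit without it called 0. Each control library correlated best with its own number among the knock-down libraries, which is a hint from the data and not the design. A stricter filter left dimm untested in batch 1 fits. Low counts limit Poxn and onecut in batch 1, where no library held more than 13 counts of either.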

Other observations

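Taken within single libraries and per exon length, the ratio of each member to pros was lower in every scute library than in every batch 2 control. With da:da the ratios of dimm, mirr, Poxn and onecut overlapped the controls, that of Ptx1 was higher and that of acj6 lower. The ratio of Ptx1 to pros was 7.03 to 8.68 in the batch 2 controls, 9.63 to 10.6 with da:da and 1.68 to 1.96 with scute. dimm to pros was 0.726 to 1.31, 0.790 to 1.21 and 0.464 to 0.523, and acj6 to pros was 1.07 to 1.42, 0.732 to 0.892 and 0.0624 to 0.0975. onecut to pros was 0.184 to 0.208 in the controls, 0.115 to 0.211 with da:da and 0.134 to 0.146 with scute.

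In batch 1 the ratio of Ptx1 to pros was 8.54 to 25.3 in the controls, 62.4 to 86.2 with da overexpression and 70.2 to 161 with knock-down, and no library of either manipulated group overlapped the controls. The ratios of mirr and acj6 to pros were also above the controls in both manipulated groups. That of dimm overlapped, at 0.594 to 1.04 in the controls, 0.569 to 0.657 with da overexpression and 0.248 to 0.912 with knock-down. The ratio of Ptx1 to mirr, both homeodomain genes, was 5.39 to 6.36 in the batch 2 controls, 6.40 to 7.59 with da:da and 5.70 to 6.02 with scute, so that the da:da libraries lay above both other groups. In batch 1 it ran from 8.32 to 32.1 in the controls, from 21.3 to 58.1 with da overexpression and from 33.5 to 49.0 with knock-down. These ratios are descriptions and carry no test.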
